A study of Homo sapiens with 6 samples.

Results

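The S100 genes described are 9 members of the family of small calcium-binding proteins, S100A2, S100A4, S100A6, S100A10, S100A11, S100A13, S100A14, S100A16 and S100P, chosen by name from 12659 genes with expression values. They were measured in polyadenylated RNA of 6 libraries, 3 from NCI-H1650Re, labelled post-SCLC (after transformation to small cell lung cancer), and 3 from NCI-H1650, labelled pre-LUAD and known as an established line of human lung adenocarcinoma. The labels name NCI-H1650 as the cell line of all 6 and give no derivation, clone, drug or other treatment for NCI-H1650Re. The study asked how expression differs after the transformation. No label ties replicates to separate cultures, and the p-values therefore reflect library-to-library spread that may be technical. In RNA from bulk cells, fewer cells expressing a gene and less RNA per cell cannot be told apart.

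S100 proteins are small, mostly dimeric proteins with EF-hand loops. Most of them bind calcium there and then expose a surface that grips other proteins. Some act inside the cell on annexins, myosin and other cytoskeletal proteins, and some are released and act on receptors such as AGER, the receptor for advanced glycation end products. In epithelia and carcinomas they are known as abundant transcripts whose levels differ with squamous differentiation, invasion and inflammation. Of the 9 genes, 8 lie in the S100 cluster of chromosome 1q21, from S100A10 (chromosome 1, 151982915 to 151994390) to S100A13 (chromosome 1, 153618787 to 153631360), and S100P lies on chromosome 4 (GRCh38, GENCODE). S100A4 overlaps S100A3 on the same strand and S100A13 overlaps S100A1 on the other strand, so reads could be shared within these pairs; S100A1 and S100A3 were not analysed here. S100A6 and S100A11 each overlap an antisense transcript, and use of strand in the counting is not stated.

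The sequence just before the start of 5 of the genes is shown, for the member that rose, the one that fell most, the adjacent pair S100A14 and S100A16, and S100A6, one of the 3 most abundant. Each run is the 250 bases before the RefSeq start (GRCh38.p14), 5′ to 3′ on the gene's strand. Capitals mark matches, on either strand, to the TATA box TATAAA, the GC box GGGCGG, the AP-1 site TGANTCA or the TEAD site GGAATG. S100P is chr4:6693628-6693877 on the plus strand, and the other 4 are on the minus strand: S100A2 at chr1:153565845-153566094, S100A16 at chr1:153613138-153613387, S100A14 at chr1:153616326-153616575 and S100A6 at chr1:153535992-153536241.
S100P: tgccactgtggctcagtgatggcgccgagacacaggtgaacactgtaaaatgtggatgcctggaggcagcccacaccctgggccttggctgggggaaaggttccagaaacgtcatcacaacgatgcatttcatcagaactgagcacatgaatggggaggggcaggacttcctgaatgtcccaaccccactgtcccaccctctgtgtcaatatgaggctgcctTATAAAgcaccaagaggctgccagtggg
S100A2: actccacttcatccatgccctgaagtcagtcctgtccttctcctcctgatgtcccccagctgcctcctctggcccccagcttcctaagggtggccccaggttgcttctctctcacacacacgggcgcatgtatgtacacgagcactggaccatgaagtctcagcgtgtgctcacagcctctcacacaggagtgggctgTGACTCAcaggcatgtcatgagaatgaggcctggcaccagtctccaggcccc
S100A16: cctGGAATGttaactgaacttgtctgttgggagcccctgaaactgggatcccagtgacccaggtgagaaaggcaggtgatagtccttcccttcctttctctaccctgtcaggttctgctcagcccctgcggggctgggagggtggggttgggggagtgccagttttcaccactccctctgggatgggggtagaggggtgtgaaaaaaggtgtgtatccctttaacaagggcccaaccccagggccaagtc
S100A14: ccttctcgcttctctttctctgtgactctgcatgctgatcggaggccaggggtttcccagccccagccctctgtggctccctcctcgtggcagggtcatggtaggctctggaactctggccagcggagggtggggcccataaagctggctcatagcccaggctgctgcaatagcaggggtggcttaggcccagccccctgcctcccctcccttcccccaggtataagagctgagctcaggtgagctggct
S100A6: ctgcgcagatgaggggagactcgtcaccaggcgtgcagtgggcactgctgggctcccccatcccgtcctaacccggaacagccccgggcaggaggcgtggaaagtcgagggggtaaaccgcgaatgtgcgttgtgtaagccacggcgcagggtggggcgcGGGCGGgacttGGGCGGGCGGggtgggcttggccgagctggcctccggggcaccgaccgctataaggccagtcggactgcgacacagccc

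S100P held a TATA box 28 bases before its start and S100A2 an AP-1 match 52 bases before its own. S100A16 held 1 TEAD match, 247 bases before the start, and S100A14 held none of the 4 motifs. S100A6 held 3 GC boxes, with 24 CpG dinucleotides in the 250 bases, against 4 each for S100P, S100A2 and S100A14, 1 for S100A16 and a median of 11 over all 35116 such windows. Over the 9 members, 4 held a GC box (S100A6, S100A10, S100A11 and S100A13), 2 a TATA box (S100P and S100A4), 1 an AP-1 site and 1 a TEAD site. Of all windows, 42.6% held a GC box, 10.7% a TATA box, 6.57% an AP-1 site and 11.9% a TEAD site. No match overlapped one of another motif. S100A2, S100A13 and S100A16 have more than 1 RefSeq start, of which the most upstream is used here. The GENCODE genes of S100P, S100A2, S100A14 and S100A6 reach past the windows shown, so GENCODE holds starts further upstream. A match of letters is not evidence that a factor binds.

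Levels are FPKM, fragment counts scaled by transcript length and library depth, which can be compared between genes as far as the lengths used hold. The S100 genes spanned nearly the whole range of the table. Mean levels in NCI-H1650Re ran down from S100A11 (916 FPKM) through S100A6 (603), S100A10 (414), S100A14 (156), S100A16 (113), S100A13 (30.9), S100A4 (16.3) and S100A2 (6.10) to S100P (1.94). In NCI-H1650 the order was S100A11 (1145), S100A6 (824), S100A10 (552), S100A16 (165), S100A14 (126), S100A13 (34.7), S100A4 (18.2), S100A2 (10.8) and S100P (0.387). Neighbours in the order did not overlap between their 3 libraries, except S100A6 with S100A10 and S100A14 with S100A16 in NCI-H1650Re. S100A14 and S100A16 were the 2 members that changed places between the lines. S100A11 ranked 27 to 30 among 11909 named genes in the NCI-H1650Re libraries and 17 to 21 in those of NCI-H1650. The 9 members summed to 2438, 2261 and 2073 FPKM in NCI-H1650Re replicates 1, 2 and 3, against 2862, 3005 and 2758 in those of NCI-H1650. S100A11, S100A6 and S100A10 together made up 81.0% to 88.3% of that sum in NCI-H1650Re and 86.6% to 88.3% in NCI-H1650, so the sums mostly follow these 3 genes.

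**Figure D1:**
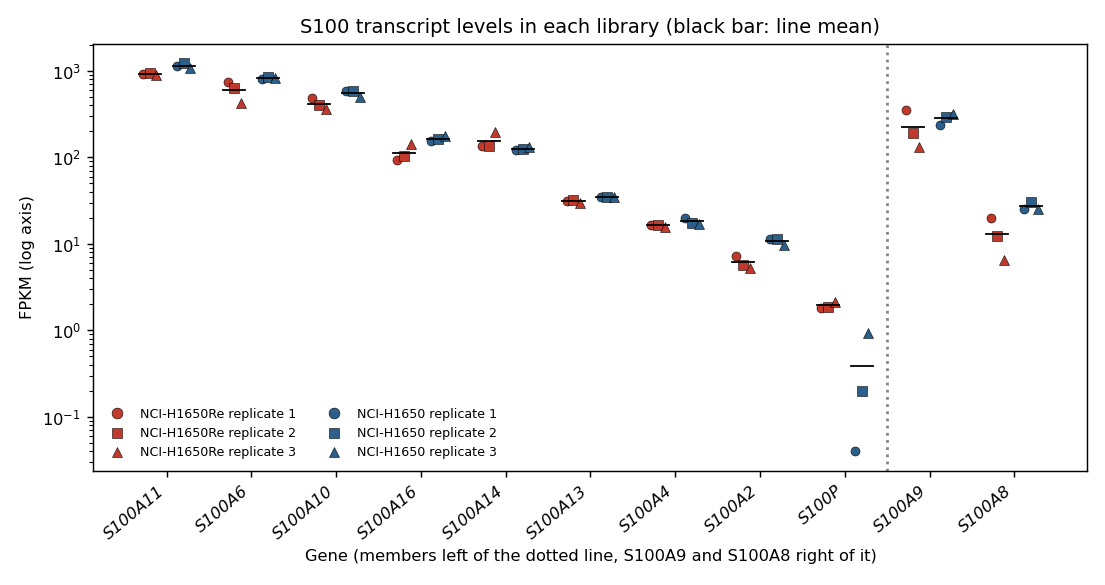
FPKM of each S100 gene on a log axis in every library, NCI-H1650Re (red) left of NCI-H1650 (blue), with marker shape for the replicate and a black bar for the mean of a line (n = 3). The 9 members do not overlap between lines, S100A9 does, and the widest gap is that of S100P.

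The lines were compared with limma on log2(FPKM + 1), NCI-H1650Re minus NCI-H1650, over the 11764 genes that averaged 1 FPKM or more in NCI-H1650Re or in NCI-H1650, and a gene was called at a Benjamini-Hochberg adjusted p under 0.05. Across these genes 30.5% were called, 16.6% higher and 13.9% lower in NCI-H1650Re. Of the 9 members, all of them tested, S100P rose, 4 fell (S100A2, S100A10, S100A11 and S100A16) and 4 did not pass (S100A4, S100A6, S100A13 and S100A14). The members' median log2 change was -0.32, with 7 of 9 below 0, beside a median of 0.03 over all tested genes, with 5311 of 11764 below 0. Libraries of the lines were fully separate for all 9 members and for 47.2% of all tested genes. For each member the two-sided exact permutation test gave p = 0.1, the smallest value that 3 libraries a line allow. S100P passed the filter on low values only through NCI-H1650Re, where it is high, and S100P and S100A2 are the members whose calls held without any single library. The count of members that fell was 1 when replicate 2 of either line was left out and 2 when NCI-H1650 replicate 1 was. The authors' deposited table gives an adjusted p under 0.05 to 6 members, the 5 above and S100A6 (0.0155), and to 27.9% of all 12659 genes. It marks 1 member as regulated, S100P, beside 6.79% of all genes in the authors' deposited table.

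**Figure D2:**
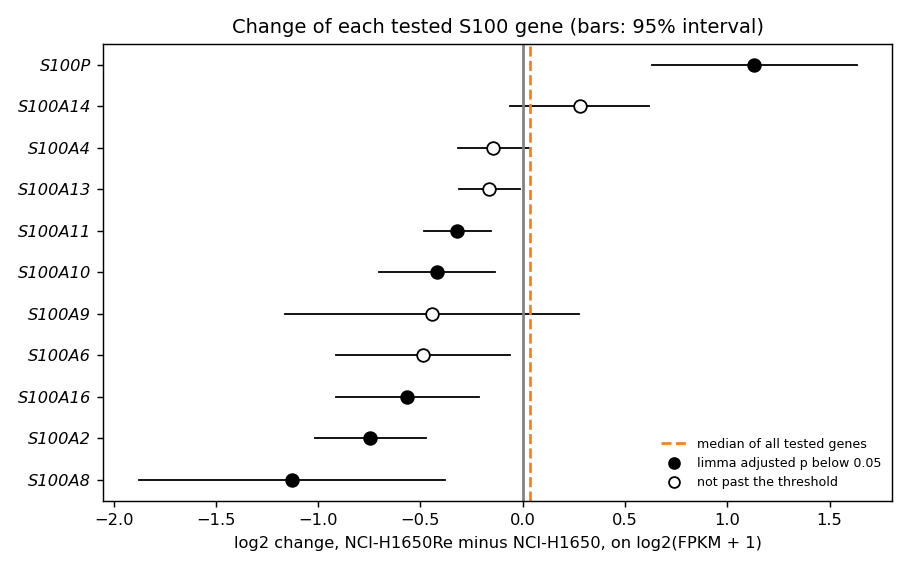
Log2 change of each tested S100 gene, NCI-H1650Re minus NCI-H1650, with its 95% interval from limma; filled points passed an adjusted p of 0.05 and the dashed line is the median of all tested genes. S100P is at 1.13, the 4 members that fell lie between -0.75 and -0.32, and S100A8 is at -1.13.

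S100P, a calcium sensor first found in placenta that binds ezrin and is secreted by several carcinomas, was at 1.81, 1.88 and 2.12 FPKM in NCI-H1650Re replicates 1, 2 and 3. In NCI-H1650 replicates 1, 2 and 3 it was at 0.04, 0.2 and 0.92 FPKM. The NCI-H1650Re libraries are close together, whereas those of NCI-H1650 are spread, with replicate 3 nearest to NCI-H1650Re. These levels rest on 47, 52 and 49 counts in NCI-H1650Re, against 1, 5 and 20 counts in NCI-H1650. S100P rose by 1.13 on log2(FPKM + 1) (SE 0.22, 95% interval 0.63 to 1.63, limma adjusted p = 0.00756). Because the level is low, the size depends on the scale: the log2 change was 2.54 with a pseudocount of 0.1, 3.18 with 0.01, and 2.40 with edgeR on the deposited counts. Those counts cover only genes the authors had marked as regulated, so the edgeR value is given as a size, with no p. Even in NCI-H1650Re, S100P stayed among the lower genes of the table, at rank 9713 to 9968 of 11909. This rank depends on the transcript length used for its FPKM.

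S100A2, an S100 protein of basal epithelial cells that binds p53, showed the largest fall among the members. It was at 7.30, 5.67 and 5.32 FPKM in NCI-H1650Re replicates 1, 2 and 3, against 11.2, 11.5 and 9.79 FPKM in those of NCI-H1650. All 3 NCI-H1650Re libraries lay below the lowest of NCI-H1650. S100A2 fell to 56.3% of the NCI-H1650 mean (log2 change -0.75, SE 0.12, 95% interval -1.02 to -0.47, limma adjusted p = 0.00364). Its log2 change lay between -0.86 and -0.67 when any 1 library was left out.

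S100A10 and S100A11 are partners of annexins, membrane-binding proteins: S100A10 forms a complex with annexin A2 and S100A11 binds annexin A1. S100A11 was at 919, 935 and 894 FPKM in NCI-H1650Re replicates 1, 2 and 3, against 1137, 1219 and 1078 in those of NCI-H1650. S100A10 was at 485, 399 and 359 FPKM in NCI-H1650Re replicates 1, 2 and 3, against 585, 578 and 492 in those of NCI-H1650. Replicate 1 of NCI-H1650Re came within 7 FPKM of the lowest NCI-H1650 library for S100A10, while S100A11 left a wider gap. S100A11 fell by 0.32 on the log2 scale (SE 0.07, limma adjusted p = 0.0131) and S100A10 by 0.42 (SE 0.12, limma adjusted p = 0.0363). S100A11 missed the threshold without NCI-H1650Re replicate 2 (limma adjusted p = 0.0511) or NCI-H1650 replicate 2 (0.0679). S100A10 missed it without NCI-H1650Re replicate 2 (limma adjusted p = 0.119), NCI-H1650Re replicate 3 (0.0579), NCI-H1650 replicate 1 (0.114) or NCI-H1650 replicate 2 (0.125).

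S100A6, or calcyclin, which binds the ubiquitin ligase adaptor CACYBP, was at 749, 633 and 426 FPKM in NCI-H1650Re replicates 1, 2 and 3, against 797, 857 and 818 in those of NCI-H1650. The NCI-H1650Re libraries were spread widely, with replicate 3 the lowest, and none reached NCI-H1650. Its log2 change was -0.49 (SE 0.18, 95% interval -0.91 to -0.06, limma adjusted p = 0.0810). Without NCI-H1650Re replicate 1 it passed (log2 change -0.66, limma adjusted p = 0.0229), and without NCI-H1650Re replicate 3 the log2 change was -0.26.

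S100A14 and S100A16 are neighbours in the cluster and are both found in many epithelia. S100A16 was at 93.0, 103 and 143 FPKM in NCI-H1650Re replicates 1, 2 and 3, against 154, 163 and 177 in those of NCI-H1650. S100A14 was at 134, 134 and 198 FPKM in NCI-H1650Re replicates 1, 2 and 3, against 122, 125 and 131 in those of NCI-H1650. In both lines replicate 3 was the highest library for both genes, and the lines lay apart in opposite directions. S100A16 fell to 68.5% of the NCI-H1650 mean (log2 change -0.56, SE 0.15, limma adjusted p = 0.0268), while S100A14 did not pass (log2 change 0.28, SE 0.15, 95% interval -0.06 to 0.62, limma adjusted p = 0.184). Without NCI-H1650Re replicate 3 the log2 change of S100A14 was 0.09. The fall of S100A16 missed the threshold without NCI-H1650Re replicate 1 (limma adjusted p = 0.0604) or 2 (0.101), and without NCI-H1650 replicate 1 (0.0573), 2 (0.0808) or 3 (0.0753). The ratio of S100A14 to S100A16 within a library was 1.44, 1.31 and 1.39 in NCI-H1650Re replicates 1, 2 and 3, against 0.789, 0.771 and 0.737 in those of NCI-H1650. In NCI-H1650Re the ratio varied less than either gene. In NCI-H1650 its relative spread was close to that of S100A14 alone. The ratio averaged 1.38 ± 0.0684 in NCI-H1650Re and 0.766 ± 0.0265 in NCI-H1650 (SD, n = 3 each), a 1.80-fold difference. The exact two-sided permutation test gave p = 0.1, the lowest it can give. This ratio was chosen after the values were seen.

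**Figure D3:**
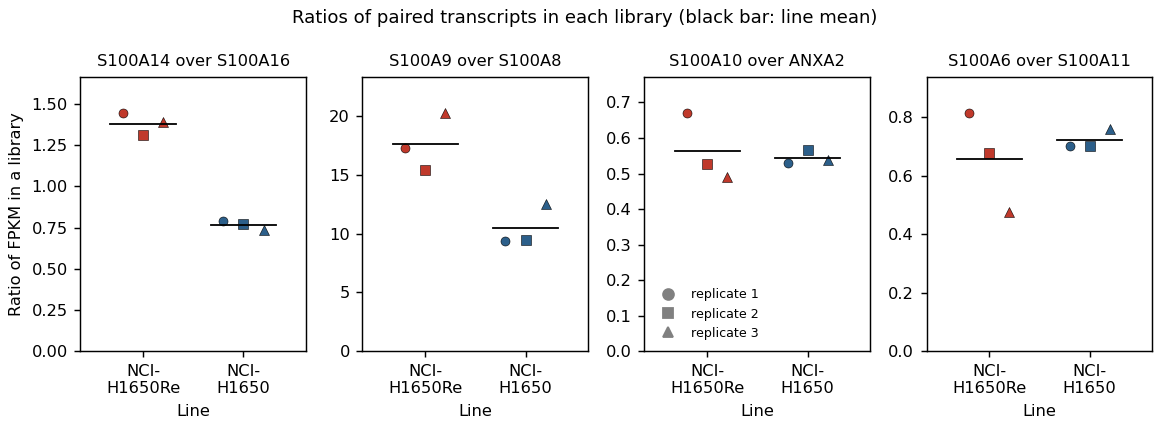
Ratio of the FPKM of 2 transcripts within each library, NCI-H1650Re left of NCI-H1650, each panel from 0 on its own axis, with a black bar for the mean of a line (n = 3). S100A14 over S100A16 and S100A9 over S100A8 are higher in all NCI-H1650Re libraries, whereas S100A10 over ANXA2 and S100A6 over S100A11 overlap between lines.

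S100A4, a metastasis-associated protein that binds non-muscle myosin, and S100A13, which takes part in the release of FGF1, differed least. S100A4 was at 16.6, 16.45 and 15.8 FPKM in NCI-H1650Re replicates 1, 2 and 3, against 19.8, 17.6 and 17.1 in those of NCI-H1650. S100A13 was at 31.0, 32.4 and 29.25 FPKM in NCI-H1650Re, against 34.4, 35.1 and 34.4 in NCI-H1650. Both were slightly lower in every NCI-H1650Re library. Neither passed: the log2 change was -0.14 for S100A4 (95% interval -0.32 to 0.03, limma adjusted p = 0.182) and -0.16 for S100A13 (-0.31 to -0.01, limma adjusted p = 0.0931).

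Of 19 further S100 and fused-type S100 genes, fused-type ones being large proteins of the cornified layer, 4 had values and 2 passed the filter; the other 15 were not analysed here. S100A8 and S100A9 together form calprotectin, known from neutrophils and from stressed squamous epithelium. S100A8 was at 20.1, 12.3 and 6.55 FPKM in NCI-H1650Re replicates 1, 2 and 3 (214, 139 and 62 counts), against 25.5, 30.8 and 25.3 FPKM in those of NCI-H1650 (297, 312 and 225 counts). S100A9 was at 348, 189.6 and 133 FPKM in NCI-H1650Re replicates 1, 2 and 3, against 239, 292 and 317 in those of NCI-H1650. The lines were apart for S100A8 but overlapped for S100A9, whose highest library was NCI-H1650Re replicate 1. S100A8 fell to 47.8% of the NCI-H1650 mean (log2 change -1.13, SE 0.32, limma adjusted p = 0.0335), and S100A9 did not pass (log2 change -0.44, SE 0.31, limma adjusted p = 0.309). S100A8 was not called without NCI-H1650Re replicate 2 (limma adjusted p = 0.0895) or without NCI-H1650 replicate 1 (0.0804), 2 (0.112) or 3 (0.0683), and without NCI-H1650Re replicate 3 its log2 change was -0.74. S100A9 passed without NCI-H1650Re replicate 1 (log2 change -0.82, limma adjusted p = 0.0157), while without NCI-H1650Re replicate 3 its log2 change was -0.13 (limma adjusted p = 0.697). The ratio of S100A9 to S100A8 was 17.3, 15.4 and 20.2 in NCI-H1650Re replicates 1, 2 and 3, against 9.38, 9.47 and 12.5 in those of NCI-H1650 (1.69-fold, exact two-sided permutation p = 0.1). This ratio was not among the planned comparisons. Of the fused-type genes, FLG (filaggrin) was at 0.03, 0.02 and 0.03 FPKM in NCI-H1650Re, against 0.11, 0.13 and 0.08 in NCI-H1650. TCHH (trichohyalin) was at 0.3, 0.38 and 0.12 FPKM in NCI-H1650Re, against 0.58, 0.52 and 1 in NCI-H1650. Both lay under the filter and were not tested with limma. The authors' deposited table marks FLG (authors' adjusted p = 8.08e-05), TCHH (0.00213) and S100A8 (0.00264) as down.

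Of 28 listed binding partners of S100 proteins, 25 had values and 23 were tested; 3 rose, 2 fell and 18 did not pass, with a median log2 change of 0.04. Over all tested genes 16.6% rose and 13.9% fell, so these counts do not set the partners apart. The annexins that pair with S100A10 and S100A11 were the 2 that fell. ANXA2, the partner of S100A10, averaged 738 ± 18.0 FPKM in NCI-H1650Re and 1013 ± 93.8 FPKM in NCI-H1650 (SD, n = 3 each; log2 change -0.45, limma adjusted p = 0.00617). ANXA1 averaged 221 ± 12.7 FPKM in NCI-H1650Re and 305 ± 7.72 FPKM in NCI-H1650 (SD, n = 3 each; log2 change -0.46, limma adjusted p = 0.00273). Both held without any single library. Another listed annexin, ANXA6, lay the other way, though its libraries overlapped between lines. It averaged 3.33 FPKM in NCI-H1650Re and 1.38 FPKM in NCI-H1650 (log2 change 0.80, limma adjusted p = 0.0651). Without both replicate 3 libraries ANXA6 was called higher (log2 change 1.08, limma adjusted p = 0.00163). S100A10 per ANXA2 was 0.670, 0.526 and 0.490 in NCI-H1650Re replicates 1, 2 and 3, against 0.531, 0.565 and 0.537 in those of NCI-H1650, so the lines overlapped (exact two-sided permutation p = 1). S100A6 per S100A11 overlapped too, at 0.815, 0.677 and 0.477 in NCI-H1650Re, against 0.701, 0.703 and 0.759 in NCI-H1650 (exact two-sided permutation p = 0.7). Neither ratio was among the planned comparisons.

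The partners that rose were MYH9, the non-muscle myosin heavy chain that S100A4 binds (log2 change 0.36, limma adjusted p = 0.0138), ANXA7 (0.31, adjusted p = 0.0123) and the scaffold IQGAP1 (0.31, adjusted p = 0.0108). All 3 calls ended without NCI-H1650Re replicate 2 (limma adjusted p = 0.0504 for MYH9, 0.0638 for ANXA7 and 0.0528 for IQGAP1). Nor were they called when NCI-H1650 replicate 2 was left out (limma adjusted p = 0.0664 for MYH9, 0.0666 for ANXA7 and 0.0608 for IQGAP1). With both replicate 3 libraries left out, 7 partners rose. Among the partners that did not pass, the most abundant were ANXA5 (log2 change -0.09), BSG (-0.16), the S100P partner EZR (0.04) and the cochaperone STIP1 (0.26, limma adjusted p = 0.106, and 0.00470 without NCI-H1650Re replicate 3).

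The S100 cluster sits among epidermal differentiation genes, and values of its neighbours lay on both sides of 0. Of 27 non-member genes with values that lie between S100A10 and S100A13 or are the next 10 on each side, 24 were tested; 2 rose, 2 fell and 20 did not pass (median log2 change 0.01, with 12 of 24 below 0), beside 16.6% higher and 13.9% lower over all tested genes. THEM4 (log2 change 0.42, limma adjusted p = 0.0108) and TDRKH (0.33, adjusted p = 0.0257) rose, and SNX27 (-0.37, adjusted p = 0.0476) fell, beside S100A8. THEM4 was not called when NCI-H1650 replicate 2 was left out (limma adjusted p = 0.0534). TDRKH missed it without NCI-H1650Re replicate 1 (limma adjusted p = 0.0661) or 2 (0.106), or when NCI-H1650 replicate 2 (0.0752) or 3 (0.0642) was left out. SNX27 missed it with no filter (limma adjusted p = 0.0529), with no variance trend (0.0506), and without NCI-H1650Re replicate 2 (0.143) or 3 (0.0829) or NCI-H1650 replicate 1 (0.123) or 2 (0.166). Of these genes, 7 lie between the outermost members, and the log2 changes of the 5 tested ones were -0.52 for IVL, -0.31 for SPRR3 and -0.01 for SPRR1B, of the cornified envelope, -0.44 for S100A9 and -1.13 for S100A8. Of these 5, S100A8 passed the test.

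**Figure D4:**
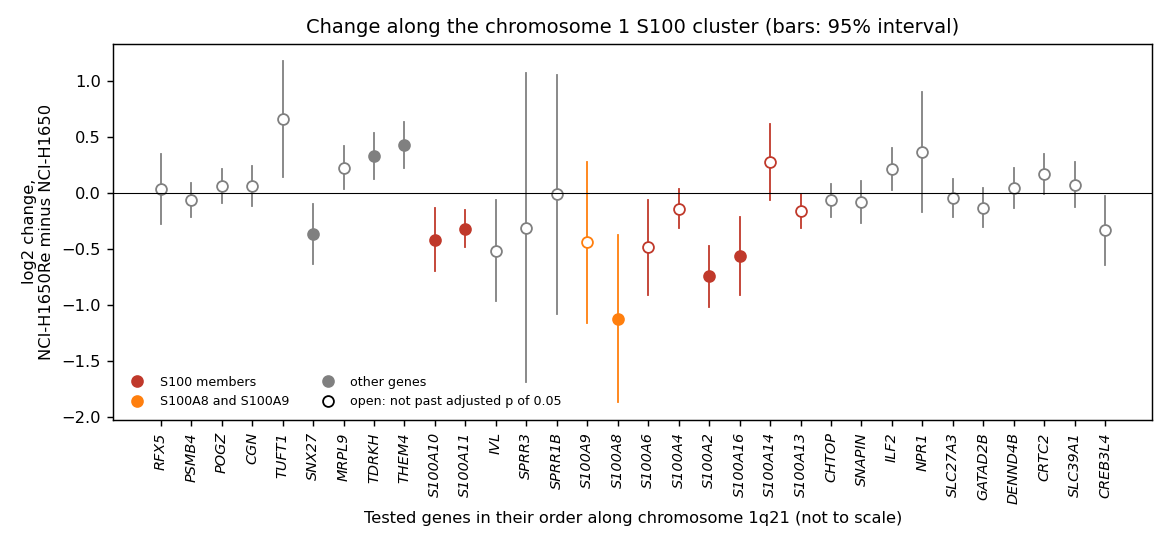
Log2 change, NCI-H1650Re minus NCI-H1650, with its 95% interval from limma, of tested genes in their order along the chromosome 1 S100 cluster (not to scale); filled points passed an adjusted p of 0.05. S100 members (red) and S100A8 and S100A9 (orange) lie below 0 except S100A14 at 0.28, IVL, SPRR3 and SPRR1B between them lie at -0.52, -0.31 and -0.01, and the genes outside the outermost members lie on both sides of 0.

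Both replicate 3 libraries differed from the others of their line in several of these genes. On log2(FPKM + 1), NCI-H1650Re replicate 3 differed from the mean of replicates 1 and 2 by -0.69 for S100A6, -1.15 for S100A8, -0.95 for S100A9, 0.56 for S100A14 and 0.54 for S100A16. NCI-H1650 replicate 3 differed by -0.02 for S100A6, -0.14 for S100A8, 0.26 for S100A9, 0.08 for S100A14 and 0.16 for S100A16. For S100P the difference was 0.78 in NCI-H1650 and 0.13 in NCI-H1650Re. S100A2 (-0.20 in NCI-H1650, -0.24 in NCI-H1650Re) and S100A10 (-0.24 in NCI-H1650, -0.29 in NCI-H1650Re) were lower in replicate 3 of both lines. The cornified envelope genes, named here after their values were seen, were higher in both: SPRR3 by 2.14 in NCI-H1650Re and 1.12 in NCI-H1650, and IVL by 0.67 in NCI-H1650Re and 0.38 in NCI-H1650. Without both replicate 3 libraries the members' calls were the same 5, with log2 changes of 1.35 for S100P, -0.73 for S100A2, -0.69 for S100A16, -0.34 for S100A11 and -0.40 for S100A10; 43.2% of all tested genes were called there. The part of squamous differentiation in these values was not tested.

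Likeness was taken on centred log2(FPKM + 1) profiles over the 6 libraries. Nearest to S100P were ASS1, UCP2, OPLAH, SLC48A1 and CUEDC1, at root mean square differences of 0.08 to 0.14. This scale understates the change of S100P, which was 1.13 here and 2.54 with a pseudocount of 0.1. Likeness to S100P on other scales was not tested. ASS1, argininosuccinate synthase, was at 54.1, 56.8 and 68.5 FPKM in NCI-H1650Re replicates 1, 2 and 3, against 19.3, 24.7 and 36.4 in those of NCI-H1650. Nearest to S100A2 were EPHB3, PLCXD1, ARHGEF3, ZWINT and CAV1, at 0.05 to 0.08. EPHB3, an ephrin receptor, was at 4.60, 3.52 and 3.20 FPKM in NCI-H1650Re replicates 1, 2 and 3, against 6.64, 6.88 and 5.85 in those of NCI-H1650. As with S100P, ASS1 was highest in replicate 3 of both lines, and as with S100A2, EPHB3 was lowest there. Both genes were picked for likeness over these same 6 libraries, so this adds no separate evidence.

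Estimated depth was 18.1 to 21.6 M (mega) fragments in NCI-H1650Re and 17.0 to 22.3 M in NCI-H1650. One FPKM of S100A8 corresponded to 9.47 to 11.3 counts in NCI-H1650Re and 8.89 to 11.7 in NCI-H1650, an implied length of 0.523 kb in every library. S100P had 47 counts at 1.81 FPKM in NCI-H1650Re replicate 1, more counts per FPKM than S100A8. The S100P values were therefore scaled by a longer length than those of S100A8. Whether that length suits the S100P transcripts of these lines was not tested. At this depth, low levels such as those of S100P rest on few fragments. Pearson correlations of log2 values over tested genes were 0.980 to 0.994 within NCI-H1650Re, 0.988 to 0.997 within NCI-H1650 and 0.959 to 0.970 between lines. As a check on the labels, all 6 epithelial markers had values, some of them apart between lines. KRT19 was at 37.9, 51.9 and 116 FPKM in NCI-H1650Re replicates 1, 2 and 3, against 644, 787 and 831 in those of NCI-H1650. CDH1 (120 to 166 FPKM in NCI-H1650Re, 237 to 254 in NCI-H1650), EPCAM (96.7 to 116 in NCI-H1650Re, 139 to 164 in NCI-H1650) and KRT8 (837 to 895 in NCI-H1650Re, 1019 to 1403 in NCI-H1650) were lower in every NCI-H1650Re library. KRT7 was higher there (961 to 1102 in NCI-H1650Re, 712 to 942 in NCI-H1650), and KRT18 overlapped (809 to 884 in NCI-H1650Re, 679 to 983 in NCI-H1650). The part of these marker differences in the S100 results was not tested. Of 8 neuroendocrine and small cell markers, 3 had values. CHGA was at 2.22, 5.15 and 2.79 FPKM in NCI-H1650Re, against 0.11, 0.35 and 1.23 in NCI-H1650. DLL3 was at 4.66, 4.31 and 3.32 FPKM in NCI-H1650Re, against 3.21, 3.23 and 2.95 in NCI-H1650. SYP lay between 1.12 and 1.79 FPKM in all 6 libraries and overlapped between lines. The remaining markers of that list and the 5 alveolar and adenocarcinoma markers NKX2-1, NAPSA, SFTPB, SFTPC and SFTA3 were not analysed here, nor were the 5 leukocyte and 3 endothelial markers. Of 6 fibroblast markers, COL1A1 lay between 1.05 and 2.69 FPKM in NCI-H1650Re and between 0.98 and 1.05 in NCI-H1650, and COL3A1 between 20.9 and 39.1 in NCI-H1650Re and between 9.02 and 11.98 in NCI-H1650.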

How the data were processed

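Per the labels' protocols, RNA came from a miRNeasy kit and mRNA libraries from a BGI kit. Tools listed in the submitters' processing notes, with no version, are HISAT2, Bowtie2, DESeq2 and RSEM. The build listed there is the mouse build mm10, yet the identifiers are human Ensembl ones; which human build was used is not stated. FPKM were computed and deposited by the authors for 12659 genes, to 2 decimals. Read counts were deposited by the authors for the 860 genes they marked as regulated, S100P and S100A8 among them. Each gene also has the authors' own adjusted p-value (FDR) and log2 fold change, per the file headers.

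The all-gene values are FPKM, so the lines were compared with limma (variance trend, line as the only term) on log2(FPKM + 1), keeping genes that averaged 1 FPKM or more in 1 of the lines. This scale understates changes of low genes. P-values were adjusted by Benjamini-Hochberg over all tested genes. Deposited counts were tested with edgeR and DESeq2 over the 860 genes, a set the authors chose for having changed, with library sizes from the ratio of counts to FPKM in 307 genes and transcript length in 37. Positions came from GENCODE release 29, matched by Ensembl identifier, and promoters from RefSeq (GRCh38.p14), matched by symbol for 9 of 9 members. Limma and edgeR were tested on simulated data. All 9 members are named, and other genes by fixed limits on size of change and level within each list. Members and lists were chosen with earlier results of these data known. Fits used limma 3.58.1, DESeq2 1.42.0 and edgeR 4.0.16 in R 4.3.3, and figures matplotlib 3.10.9 in Python 3.11.15.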

Additional observations from a re-analysis of the deposited data

How the results depend on the processing

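Of 136 recomputed log2 changes of the 9 members, 124 kept their direction and their side of the threshold. Another 11 lost their call and 1 gained one, all 12 when 1 of the 6 libraries was left out. Over its 6 such fits, S100A16 lost its call in 5, S100A10 in 4 and S100A11 in 2. Most of the 136 are other settings, which changed no call of a tested member. Among the 136 are the edgeR and DESeq2 fits of S100P. They cover only genes the authors had marked as regulated, so they do not test its call. No direction turned. When 1 library was left out, log2 changes ranged from -0.54 to -0.32 for S100A10, -0.36 to -0.27 for S100A11, -0.74 to -0.44 for S100A16, -0.66 to -0.26 for S100A6 and 0.09 to 0.37 for S100A14. The count of members that fell ranged from 1 to 4, that of other S100 genes from 0 to 2, partners higher from 0 to 6, neighbours higher from 0 to 3 and lower from 0 to 4. Over all genes, 899 to 2476 were called higher and 886 to 2002 lower. With a mean of at least 5 FPKM, S100P was not tested and 0 of 8 members rose. With no filter 2 other S100 genes fell. With no variance trend 1 neighbour fell. Without both replicate 3 libraries 7 partners rose, and 5 neighbours rose and 4 fell. Replicate numbers did not pair all libraries: same-numbered deviations correlated at 0.17, -0.04 and 0.21, and not every library correlated best with its own number. The replicate 3 libraries did correlate best with each other. NCI-H1650Re replicate 3 was at -0.15 and -0.18 with NCI-H1650 replicates 1 and 2. NCI-H1650 replicate 3 was at -0.26 and 0.02 with NCI-H1650Re replicates 1 and 2. With the replicate number as a block 3522 genes were called, against 3587 without, and 5 partners and 4 neighbours rose; no member's call changed. The share of calls that were higher in NCI-H1650Re was 54.4%, and 49.3% with median-of-ratios scaling. For changed calls the cause was not tested. Leaving out a library leaves fewer samples. Without NCI-H1650Re replicate 3, 4478 genes were called, and 5080 without both replicate 3 libraries, against 3587 with all. Fewer were called without any other single library, down to 1785 without NCI-H1650 replicate 2. Depth limits S100P, at 1 to 20 counts per NCI-H1650 library.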
